A study of Mus musculus with 18 samples.

Results

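The genes described here are 6 members of the Rhox homeobox family, Rhox4d, Rhox4e, Rhox5, Rhox6, Rhox9 and Rhox13. They were taken by gene symbol from the gene lists of the libraries, which hold 34 Rhox genes among 31053 mouse genes, and all 6 were present in every library. The Rhox genes lie side by side on the X chromosome and encode homeobox transcription factors named after the reproductive tissues in which they are used. Members are known from the placenta, the yolk sac, the testis and the ovary, and most are silent in the body of the embryo, where promoter DNA methylation is a known means of their repression. Rhox5, once called Pem, is the founding member and is known from extraembryonic tissue and the somatic cells of the gonads. Rhox6 and Rhox9 were first described as placenta-specific homeobox genes, the Rhox4 genes are a set of recent near-identical copies that include the gene once called Ehox, and Rhox13 is known from male germ cells.

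The study used whole mouse embryos collected at E8.5 on the 129S4/SvJae background, with 1 single-cell 10x library per embryo, in which each RNA molecule caught carries a unique molecular identifier (UMI). There were 7 wild-type (WT) embryos, 3 embryos without Dnmt1, 4 without Dnmt3a and 4 without Dnmt3b, all from matings of heterozygous parents, and each was genotyped on its ectoplacental cone. They are named Dnmt1 KO, Dnmt3a KO and Dnmt3b KO, and which exons the alleles lack is not given in the sources used here. DNMT1 copies methylation onto newly replicated DNA, whereas DNMT3A and DNMT3B methylate unmethylated DNA. A loss carried by the parents reaches extraembryonic as well as embryonic tissue.

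The libraries kept 1361 to 12597 cells and 36369242 to 230259315 UMIs each, with a median of 3694 to 60322 UMIs per cell, and 108028 cells were kept in all, each library counted by itself. Dnmt3b KO 1 and Dnmt3b KO 2 shared 12249 cell barcodes, 86.5% of the first and 79.3% of the second, against at most 133 for any other of the 153 pairs of libraries, so they were summed and counted as 1 embryo (Dnmt3b KO n = 3). With these barcodes merged, Dnmt3b KO held 25916 cells, against 33844 counted by library. Of the shared barcodes, 59.12% had more than 1.5 times as many UMIs in the first library and 39.59% in the second. The other 1.29% lay within 1.5 times. Whether both libraries hold cells of the same embryo alone was not tested. By Y-linked counts, WT 2 was the only male of the WT embryos, Dnmt3b KO 12 the only female of the KO embryos. Sex is therefore nearly confounded with genotype for these X-linked genes. Dnmt1 stood at 14.8 to 15.6 UMIs per 1000000 (CPM) in Dnmt1 KO against 83.1 to 115 in WT, and Dnmt3a at 7.50 to 11.8 CPM in Dnmt3a KO against 23.2 to 34.8 in WT. Dnmt3b was not lower in Dnmt3b KO, at 57.9 to 68.6 CPM against 35.7 to 87.3 in WT, and a 3' count need not lie in the deleted part. The library labelled Dnmt3b KO 12 also had the lowest Dnmt3a level outside Dnmt3a KO, 7.53 CPM, which is within the Dnmt3a KO range, and was the only one made with Cell Ranger 5.0.0. Its labelled genotype is therefore in doubt. It was the highest of the Dnmt3b KO embryos for all 6 genes, so the Dnmt3b KO calls against WT, by embryo and by class, are given with and without it.

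Promoter sequence was at hand in the RefSeq table (GRCm38.p6) for 3 of the 6 genes and for 27 of the 34 Rhox genes, and is shown because CpG sites are what the deleted enzymes act on. Each window holds 250 bases before and 50 bases from the RefSeq gene start, on the plus strand of chromosome X, with every CpG in capitals. The windows lie at chrX:37557162-37557461 for Rhox4e, chrX:37754358-37754657 for Rhox5 and chrX:38120590-38120889 for Rhox13.

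Rhox4e: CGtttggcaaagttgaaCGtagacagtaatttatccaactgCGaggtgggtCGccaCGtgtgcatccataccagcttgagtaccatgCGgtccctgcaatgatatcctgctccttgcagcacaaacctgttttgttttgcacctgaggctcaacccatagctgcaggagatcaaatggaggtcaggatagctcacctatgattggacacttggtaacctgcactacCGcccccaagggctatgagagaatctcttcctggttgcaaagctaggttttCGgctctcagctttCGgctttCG
Rhox5: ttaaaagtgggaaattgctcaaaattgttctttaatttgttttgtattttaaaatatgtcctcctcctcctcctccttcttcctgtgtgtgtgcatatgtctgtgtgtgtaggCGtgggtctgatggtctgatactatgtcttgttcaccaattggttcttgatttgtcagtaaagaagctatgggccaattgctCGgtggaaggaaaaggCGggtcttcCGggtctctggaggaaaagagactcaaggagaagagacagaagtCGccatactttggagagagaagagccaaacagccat
Rhox13: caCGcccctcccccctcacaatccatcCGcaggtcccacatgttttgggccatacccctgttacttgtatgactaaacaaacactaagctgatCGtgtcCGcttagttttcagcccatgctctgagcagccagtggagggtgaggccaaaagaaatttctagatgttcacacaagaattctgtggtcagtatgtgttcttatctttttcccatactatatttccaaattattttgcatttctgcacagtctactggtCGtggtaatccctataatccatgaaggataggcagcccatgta

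The Rhox4e window held 10 CpG sites, and the Rhox5 and Rhox13 windows held 5 each. The median was 7 both over the 27 Rhox promoters and over all 32851 promoters of the table, and 43.5% of all promoters had at least 10 sites and 62% at least 5. The E-box CACGTG, which reads the same on both strands, was found 196 bases before the Rhox4e start. It was present in 5 of 27 Rhox promoters, all of them among the 7 Rhox4 promoters, against 7.15% of all promoters. The letters TCCCGC, searched on both strands, were present in 0 of 27 Rhox promoters and in 20% of all promoters. The Rhox5 and Rhox13 windows belong to starts that lie upstream of those in the GENCODE annotation, which are at 37804842 and 38121219, so neither window reaches the annotated start, and methylation was not measured in these libraries.

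The Rhox4 pair rose in Dnmt1 KO and in Dnmt3b KO embryos. Rhox4d (ENSMUSG00000079633, chromosome X, 37514359 to 37519176, plus strand, protein-coding, mm10) stood at 0.113 CPM in the lowest WT embryo, at a median of 0.160 and at 0.665 in the highest, WT 2. It reached 6.59, 8.18 and 4.0 CPM in Dnmt1 KO 1, 2 and 3, and 2.98, 6.12 and 16 CPM in Dnmt3b KO 1 and 2, 11 and 12. Every Dnmt1 KO and Dnmt3b KO embryo lay above every WT embryo, whereas the Dnmt3a KO embryos, at 0.406 to 0.682 CPM, overlapped with WT. The log2 fold change against WT was 4.77 ± 0.50 (SE) in Dnmt1 KO and 5.08 ± 0.50 in Dnmt3b KO, with adjusted p of 1.6e-06 and 5.0e-06 from the quasi-likelihood test of edgeR. Rhox4e (ENSMUSG00000071770, 37557412 to 37562283, plus strand, protein-coding), its neighbour copy, had 0.0275, 0.256 and 0.920 CPM as the lowest, median and highest WT values. It had 6.70, 8.60 and 4.48 CPM in Dnmt1 KO 1, 2 and 3, and 7.07, 7.85 and 14.3 CPM in Dnmt3b KO 1 and 2, 11 and 12. Again no embryo of these KO groups overlapped with WT, and the log2 fold changes were 4.37 ± 0.48 (adjusted p 3.0e-06, edgeR) and 4.83 ± 0.49 (adjusted p 5.9e-06). Rhox4e in Dnmt3a KO, at 0.544 to 1.40 CPM, overlapped with WT (log2 fold change 1.52, adjusted p 0.222), but was called when WT 2 was left out (2.08, adjusted p 0.0059). The Rhox4 copies are so alike that reads fitting more than 1 of them are lost in counting and the rest may be assigned to the wrong copy, so the values of Rhox4d and Rhox4e are uncertain as levels of single genes.

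Rhox5 differed from the Rhox4 genes in being present in every WT embryo at a high level. Rhox5 (ENSMUSG00000095180, 37804842 to 37808876, plus strand, protein-coding) ranged from 104 CPM in WT 2 to 261 CPM, with a median of 212. In Dnmt1 KO it stood at 614, 873 and 319 CPM in embryos 1, 2 and 3, all above WT, a log2 fold change of 1.67 ± 0.28 (adjusted p 2.1e-04, edgeR). The Dnmt3a KO embryos, at 157 to 211 CPM, lay within the WT range. In Dnmt3b KO, the level was 171 CPM in 1 and 2, 215 in 11 and 412 in 12, so that only embryo 12 exceeded WT and the group was not called (0.39 ± 0.29, adjusted p 0.519). With ExE ectoderm-like and ExE endoderm-like cells left out it was called (2.66, adjusted p 0.0066, edgeR), but not with embryo 12 left out as well (0.68, adjusted p 0.623). In these sums over the whole embryo, fewer cells that use a gene and less RNA per cell cannot be told apart.

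Rhox6 (ENSMUSG00000006200, 37826910 to 37829857, plus strand, protein-coding) and Rhox9 (ENSMUSG00000068048, 37899097 to 37901770, minus strand, protein-coding) behaved alike in Dnmt1 KO. Rhox6 had 6.19, 11.4 and 15.1 CPM as the lowest, median and highest WT values, and 51.6, 158 and 52.8 CPM in Dnmt1 KO 1, 2 and 3. Rhox9 had 0.135, 0.472 and 7.68 CPM in WT, the last in WT 2, and 21.9, 76.9 and 27.0 CPM in Dnmt1 KO. Neither gene overlapped between these groups, and both were called, with log2 fold changes of 3.04 ± 0.41 (adjusted p 2.2e-05, edgeR) for Rhox6 and 4.68 ± 0.93 (adjusted p 0.00084) for Rhox9. In Dnmt3b KO, Rhox6 had 15.5, 21.6 and 83.3 CPM in 1 and 2, 11 and 12, just above WT in the first, and missed the threshold (1.80 ± 0.41, adjusted p 0.0158), which it passed without Dnmt3b KO 1 and 2 (2.19, adjusted p 0.0026) and, at the same fold change, without Dnmt1 KO 2, which only changes the spread estimated over all groups (adjusted p 0.0060). Rhox9 had 3.38, 6.87 and 43.3 CPM in the same embryos and also missed it (3.33 ± 0.91, adjusted p 0.0501). The first pair of these values lay below WT 2, and without WT 2 the gene was called (4.82, adjusted p 0.000430). In Dnmt3a KO, Rhox6 stood at 6.16 to 10.0 CPM and Rhox9 at 0.860 to 1.75 CPM, with no call.

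Rhox13 (ENSMUSG00000050197, 38121219 to 38129967, plus strand, protein-coding) was near 0 in WT and Dnmt3a KO. The WT embryos held 3 UMIs in all, in 2 embryos, so the gene passed the filter on low counts through the KO embryos alone. The Dnmt1 KO embryos held 20.5, 19.7 and 25.5 CPM, a narrow range beside that of the other genes, and the Dnmt3a KO embryos held at most 0.0611 CPM. In Dnmt3b KO, embryo 12 had 4.80 CPM, and 11 and the pair 1 and 2 had 0.191 and 0.0629. All 3 lay above WT, and the gene passed the call threshold in Dnmt1 KO and Dnmt3b KO, which is a description only, since the filter kept it for being high there. The ratio of the pooled levels is given with its exact 95% counting interval, 8348 (2855 to 40490) in Dnmt1 KO and 502 (171 to 2439) in Dnmt3b KO, the latter 47 (15.3 to 235) without embryo 12.

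**Figure D1:**
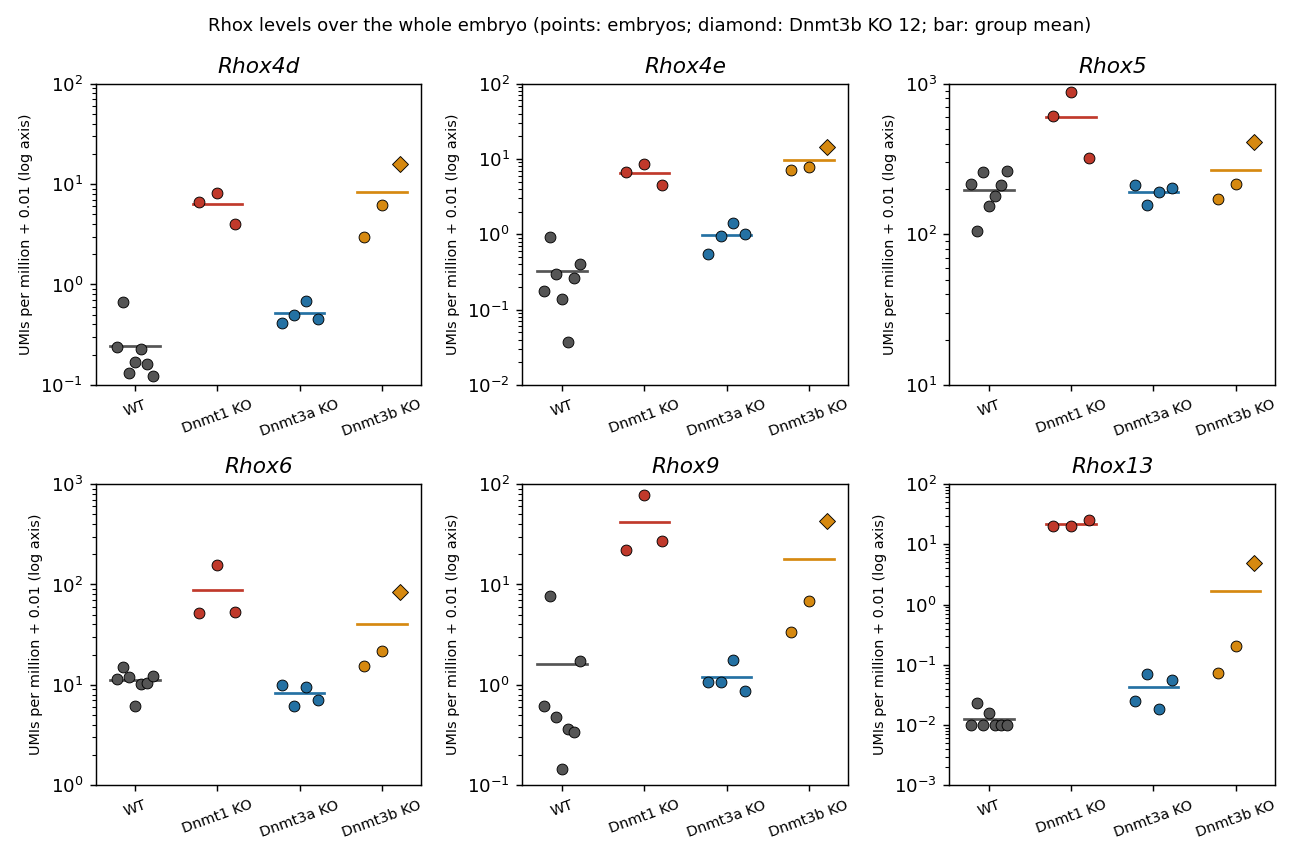
CPM, plus 0.01 and on a log axis, of the 6 genes over the whole embryo, with 1 point per embryo (WT, Dnmt1 KO, Dnmt3a KO, Dnmt3b KO), a bar at the group mean and a diamond for Dnmt3b KO 12. The 3 Dnmt1 KO points lie above all 7 WT points in every panel, and the diamond is the highest Dnmt3b KO point in every panel.

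A gene is called here where its adjusted p is under 0.01 and its log2 fold change at least 1. Over the whole embryo, 6 of 6 genes were called higher in Dnmt1 KO, 3 of 6 in Dnmt3b KO (Rhox4d, Rhox4e and Rhox13) and 0 of 6 in Dnmt3a KO. Without Rhox13, which had to differ to pass the filter, the counts were 5, 2 and 0 of 5. Of the 18721 genes tested, 8.12%, 1.69% and 0.203% were called higher in these comparisons. In Dnmt3a KO, edgeR gave 2 of the 6 genes an unadjusted p below 0.05, and there were 0 calls by DESeq2. In the order Dnmt1 KO, Dnmt3b KO and Dnmt3a KO, every embryo of the group lay above every WT embryo for 6, 4 and 0 genes, against 11%, 5.68% and 1.78% of all genes. The median log2 fold change of the 6 genes was 4.53, 4.08 and 0.50, and that of all genes was 0.01, -0.02 and 0.00. The overlap counts and these medians include Rhox13, which the filter kept for being high in KO embryos, so they are a description. Apart from it, the genes with every Dnmt3b KO embryo above WT were Rhox4d, Rhox4e and Rhox6. The comparisons share their WT embryos. Without Dnmt3b KO 12, Rhox4d (4.25) and Rhox4e (4.48) were still called in Dnmt3b KO, whereas Rhox5 stood at -0.04, Rhox6 at 0.73 and Rhox9 at 1.59. Rhox13 (5.24) also passed the threshold, with 59 UMIs in these KO embryos against 3 in WT. That is a description only, since the filter kept it for being high in KO embryos. The share of all genes called without embryo 12 is not given here. Without the ExE classes, all 5 genes other than Rhox13 were called in Dnmt3b KO, where 2.11% of all genes were called higher, and 4 of them (not Rhox5) with embryo 12 left out too, where 1.07% were. With the Y-linked share as a covariate, Rhox9 was no longer called in Dnmt1 KO (adjusted p 0.0402) and the other 5 genes were. This covariate rests mainly on WT 2 and Dnmt3b KO 12, each the only embryo of its sex in its group, so it cannot separate sex from genotype.

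The KO groups were also compared directly. Between Dnmt1 KO and Dnmt3b KO, where 3.72% of all genes were called higher in Dnmt1 KO, edgeR called 0 of the 5 genes other than Rhox13, with an unadjusted p below 0.05 for Rhox5 (log2 difference 1.28 ± 0.36, adjusted p 0.0141) and Rhox6 (1.24 ± 0.51, adjusted p 0.0772), and DESeq2 called Rhox5. Rhox5 was also called by edgeR without Dnmt1 KO 3 and without WT 2, and Rhox5 and Rhox6 without Dnmt3b KO 12. Rhox13 passed the threshold between these groups, which is a description only, as the filter kept it for being high in Dnmt1 KO. The 5 genes other than Rhox13 were all called higher in Dnmt1 KO than in Dnmt3a KO by edgeR and by DESeq2, where 7% of all genes were by edgeR, and Rhox13 again had to differ. Rhox4d (4.03) and Rhox4e (3.31) were called higher in Dnmt3b KO than in Dnmt3a KO, where 0.214% of all genes were. These calls depended on single embryos, with 0 left when any Dnmt3a KO embryo or Dnmt3b KO 12 was left out, 1 without Dnmt1 KO 1, Dnmt1 KO 2, WT 3, WT 6 or WT 7, and 4 without Dnmt3b KO 1 and 2.

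Markers of ExE ectoderm, the trophoblast lineage, moved with the Dnmt1 KO result. The summed level of 13 such markers was 169 to 490 CPM in Dnmt1 KO against 88.6 to 139 in WT, and 98.4 to 132 in Dnmt3a KO and 117 to 138 in Dnmt3b KO. Of 12 tested, 9 were called higher in Dnmt1 KO and 0 in the others (edgeR unadjusted p under 0.05 for 0 in Dnmt3a KO and 2 in Dnmt3b KO, DESeq2 0 in both), and Tpbpa had no UMI. Of 8 primordial germ cell markers, 3 were called higher in Dnmt1 KO, 2 in Dnmt3b KO and 0 in Dnmt3a KO (2 at an edgeR unadjusted p below 0.05, 0 by DESeq2). Of 8 epiblast markers, 5 were called higher in Dnmt1 KO (summed level 133 to 191 CPM against 22.1 to 85.9 in WT) and 0 in the other KO groups, where edgeR gave an unadjusted p below 0.05 for 6 in Dnmt3a KO, each of them lower than in WT, and 1 in Dnmt3b KO and DESeq2 made 0 calls. ExE ectoderm-like cells made up 16.9% of Dnmt1 KO and 0.358% of WT cells, with 80, 928 and 105 of these cells in Dnmt1 KO 1, 2 and 3, and 5.11% of Dnmt1 KO cells without embryo 2. Without ExE ectoderm-like and ExE endoderm-like cells Rhox5 was still called in Dnmt1 KO (log2 fold change 3.22, adjusted p 0.000244, edgeR), and the part of the other markers in the result was not tested.

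The other genes of the cluster were higher as well. The Rhox genes span 37213804 (Rhox1) to 38129967 (the end of Rhox13). Of the 28 other Rhox genes, 17 passed the filter on low counts. Of these, 17 were called higher in Dnmt1 KO, 16 in Dnmt3b KO and 0 in Dnmt3a KO, with median log2 fold changes of 7.27, 6.53 and 2.07. Several of them had next to no UMI in WT, such as Rhox2b with 0 and Rhox2c with 1 UMI over all WT embryos, and passed the filter through KO embryos, so these counts and medians are a description. The Dnmt3a KO set held 8 genes with an edgeR unadjusted p below 0.05 and 0 calls by DESeq2. Without Dnmt3b KO 12, 9 of 19 were called in Dnmt3b KO, with a median of 3.26. Embryo 12 was the highest of the Dnmt3b KO embryos for 29 of the 31 Rhox genes with a UMI. Of 27 protein-coding genes within 1 Mb on either side, 25 were tested. In Dnmt1 KO, Gm6268 (log2 fold change 6.76), Gm9 (5.74), the nearest gene on the Rhox1 side at a distance of 2763 bases, and Sowahd (2.06) were called higher, 3 of 25 against 8.12% of all genes, and Tmem255a (-1.43) lower. In both other KO groups 0 of 25 were called, with an unadjusted p under 0.05 for 1 in Dnmt3a KO and 4 in Dnmt3b KO and 0 calls by DESeq2. Zbtb33, the nearest gene on the Rhox13 side at 59826 bases, had log2 fold changes of -0.28, -0.20 and -0.40 in Dnmt1 KO, Dnmt3a KO and Dnmt3b KO and was not called. Among 15 genes of the silencing machinery, the calls were Dnmt1 lower and Dnmt3l higher in Dnmt1 KO and Dnmt3a lower in Dnmt3a KO, with 0 calls in Dnmt3b KO (4 at an edgeR unadjusted p below 0.05, 0 by DESeq2).

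**Figure D2:**
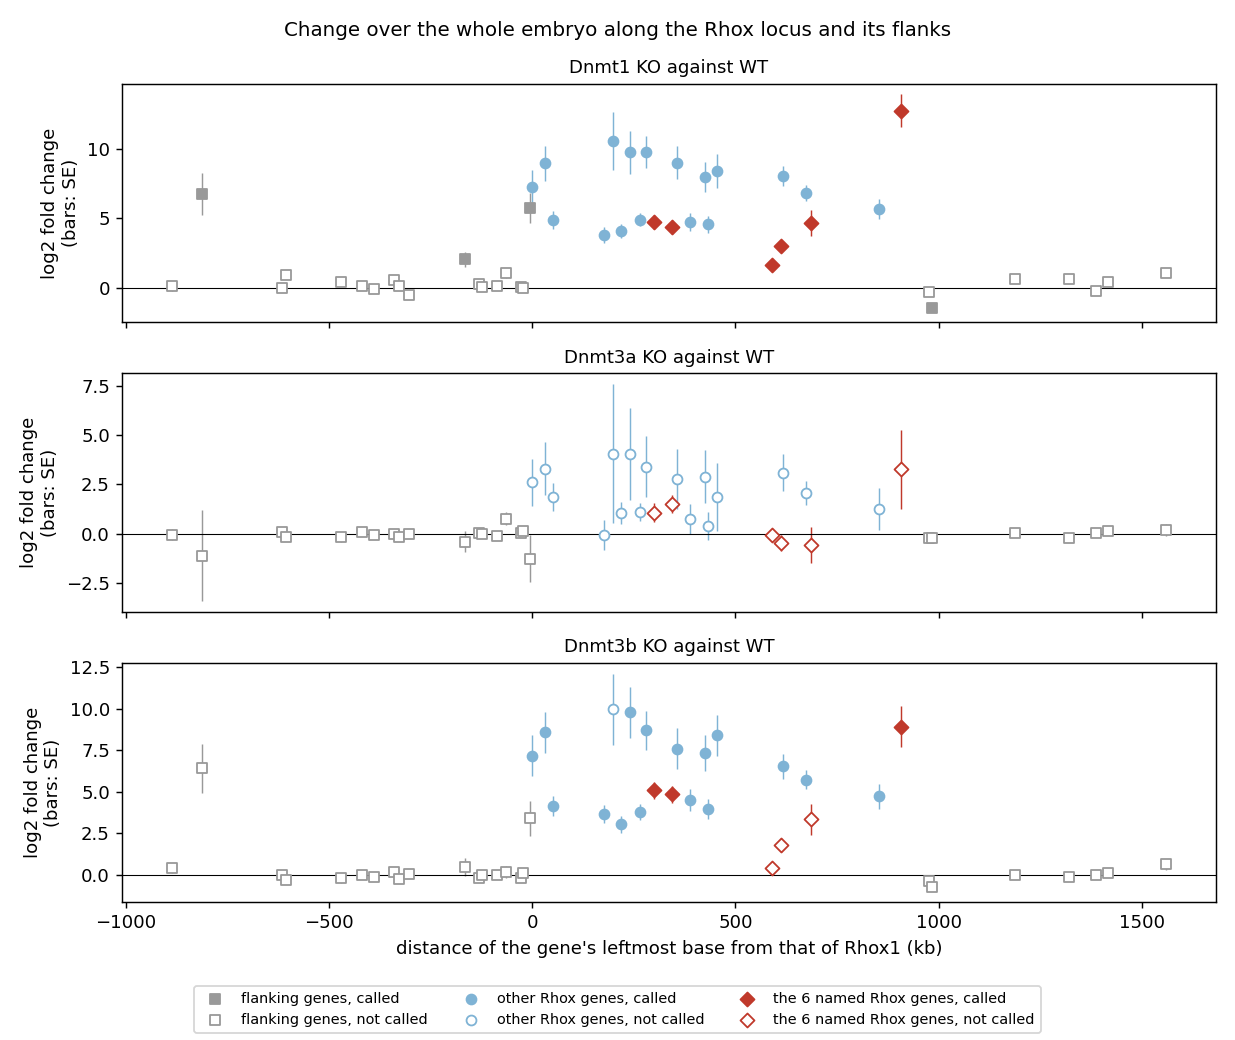
Log2 fold change against WT over the whole embryo (y axis, bars: SE) by the distance of each gene's leftmost base from that of Rhox1 in kb (x axis), in 1 panel for each KO group, for the 6 genes, the other Rhox genes and the flanking genes. Filled points were called. In the Dnmt1 KO panel all tested Rhox genes are filled, and in the Dnmt3a KO panel none is.

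Cells were then grouped into classes named after their markers, and called X-like, to ask in which tissues the genes changed. In WT, Rhox5 was highest in ExE endoderm-like cells, the yolk sac lining, at 1126 to 1339 CPM. Next came gut endoderm-like cells (51.1 to 176 CPM), then allantois-like, ExE mesenchyme-like, endothelium-like and cardiomyocyte-like cells, and 9 further classes from head mesoderm-like to neural tube-like cells. Of the 14 steps between neighbours in this order, 3 were larger than their SD over embryos on the log2(CPM + 0.5) scale. These were from ExE endoderm-like to gut endoderm-like (3.74 ± 0.66, SD, n = 7), from allantois-like to ExE mesenchyme-like (1.16 ± 0.59) and from cardiomyocyte-like to head mesoderm-like (1.23 ± 0.67). The other 11 pairs of neighbours did not differ beyond their spread, which includes every step among the 9 lowest classes.

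In ExE endoderm-like cells, which use Rhox5 and Rhox6 in WT, neither gene was called in any KO group, whereas the Rhox4 genes were called in all of them. Rhox5 stood at 1059 to 1071 CPM in Dnmt1 KO, 1102 to 1157 in Dnmt3b KO and 977 to 1210 in Dnmt3a KO, with log2 fold changes of -0.17 ± 0.09, -0.17 ± 0.09 and -0.14 ± 0.08. Rhox6 stood at 49.3 to 71.0 CPM in WT, 36.4 to 55.5 in Dnmt1 KO, 50.0 to 77.4 in Dnmt3b KO and 33.2 to 58.1 in Dnmt3a KO, with log2 fold changes of -0.25 ± 0.18, -0.02 ± 0.17 and -0.36 ± 0.16. The 3 Dnmt1 KO embryos lay just below WT for Rhox5 (adjusted p 0.141, edgeR), and every other KO group overlapped with WT, for Rhox6 as well. Rhox4d was at 0.154 to 0.590 CPM in WT in these cells and at 7.22 to 11.4 CPM in Dnmt1 KO (log2 fold change 4.85), 1.16 to 3.16 in Dnmt3a KO (2.51) and 3.94, 8.71 and 25.5 CPM in Dnmt3b KO (5.21). No KO embryo overlapped with WT, and the gene was called in all 3 groups (adjusted p 5.1e-07, 0.0073 and 1.4e-06, edgeR). The Dnmt3a KO call was lost in thinned counts (log2 fold change 3.59) and when any of Dnmt3a KO 13, Dnmt3a KO 14, Dnmt1 KO 3 and WT 2 to 7 was left out (2.10 to 2.52). Rhox9 was at 0.848 to 3.42 CPM in WT, 5.64 to 10.6 in Dnmt1 KO (2.12, called) and 4.11, 5.12 and 11.6 CPM in Dnmt3b KO (1.70, adjusted p 0.0046), a call that was lost without embryo 12. In Dnmt3a KO its log2 fold change was 0.77 (adjusted p 0.215). Rhox13 had no UMI in these cells in any WT, Dnmt3a KO or Dnmt3b KO embryo, embryo 12 included, which allows up to 0.0168, 0.0275 and 0.0339 CPM by counting error alone. In Dnmt1 KO it stood at 10.4, 6.0 and 9.74 CPM, at least 518-fold higher than WT, with 3 UMIs over the WT group as the limit.

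As a description of these embryos, the mean of log2(CPM + 0.5) over 4 classes (cardiomyocyte-like, endothelium-like, ExE mesenchyme-like and gut endoderm-like) minus that in ExE endoderm-like cells was compared between KO and WT. For Rhox5 this difference was 3.004 higher in Dnmt1 KO, 1.83 in Dnmt3b KO and 0.84 in Dnmt3a KO than in WT, and for Rhox6 it was 4.50, 4.46 and 1.20 higher. Without embryo 12 the Dnmt3b KO values were 0.64 for Rhox5 and 3.71 for Rhox6.

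**Figure D3:**
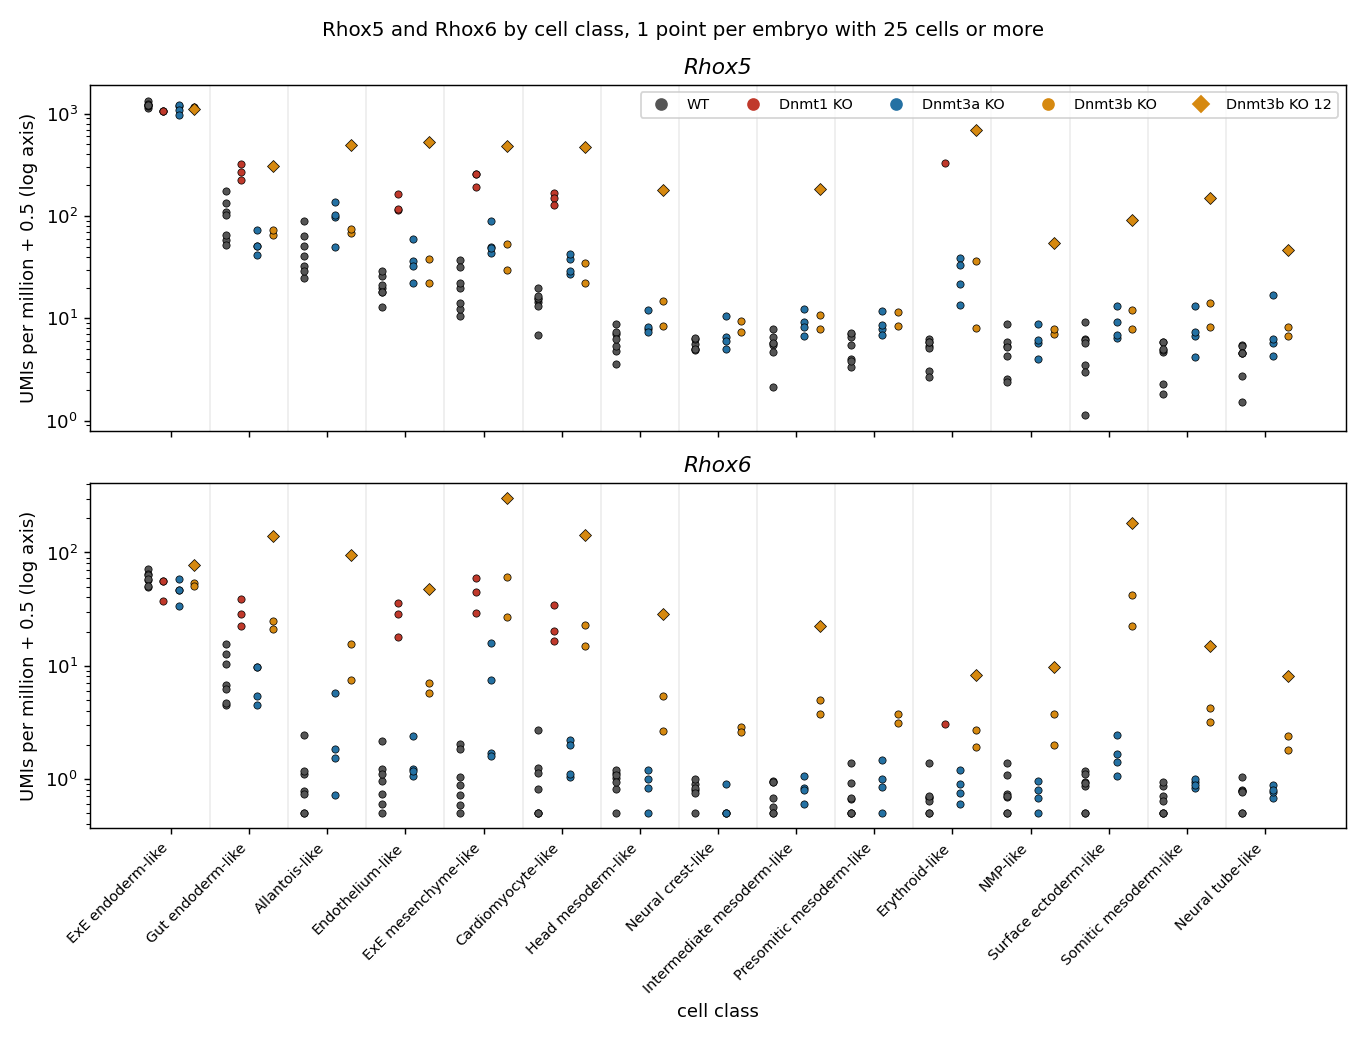
Rhox5 and Rhox6 by cell class (x axis), in CPM plus 0.5 on a log axis, with 1 point per embryo with 25 cells or more of the class and a diamond for Dnmt3b KO 12. In ExE endoderm-like cells Rhox5 lies between 977 and 1339 CPM in all embryos, whereas in ExE mesenchyme-like cells WT lies between 10.1 and 36.9 CPM and Dnmt1 KO between 191 and 257 CPM.

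In ExE ectoderm-like cells these genes were high with and without Dnmt1. WT 2 was the only WT embryo with enough of them, 120 of the 122 WT cells, so no test was possible. In WT 2 Rhox4d stood at 25.03 CPM, Rhox4e at 25.4, Rhox5 at 1093, Rhox6 at 472 and Rhox9 at 339 CPM. The 3 Dnmt1 KO embryos had 12.4 to 19.6 CPM of Rhox4d, 15.9 to 19.1 of Rhox4e, 1314 to 1344 of Rhox5, 313 to 453 of Rhox6 and 181 to 270 of Rhox9. Rhox13 differed, with 28.7 to 29.9 CPM in Dnmt1 KO and no UMI in WT, which allows up to 0.974 CPM. WT 2 was also the highest WT embryo for Rhox4d, Rhox4e, Rhox6 and Rhox9 over the whole embryo, and the part of its ExE ectoderm-like cells in those values was not tested.

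In the 5 classes with enough cells in both Dnmt1 KO and WT embryos, 26 of 28 pairs of a gene and a class were called higher, where 4.79% of all such pairs were, and the exceptions were Rhox5 and Rhox6 in ExE endoderm-like cells. Some pairs, those of Rhox13 among them, passed the filter on low counts through KO embryos alone and had to differ, so this count is a description. In ExE mesenchyme-like cells, Rhox5 went from 10.1 to 36.9 CPM in WT to 191 to 257 CPM in Dnmt1 KO (log2 fold change 3.54), and Rhox6 from 0 to 1.53 CPM to 28.9 to 59.5 CPM (6.28). In gut endoderm-like cells, Rhox13 had no UMI in WT, which allows up to 0.0528 CPM, and stood at 64.05, 42.4 and 73.96 CPM in Dnmt1 KO 1, 2 and 3, at least 1140-fold higher. It was at least 273-fold higher in cardiomyocyte-like and at least 357-fold higher in ExE mesenchyme-like cells. In cardiomyocyte-like cells Rhox5 was at 6.39 to 19.3 CPM in WT and 127 to 167 CPM in Dnmt1 KO (3.35), with no overlap in any of these. Dnmt1 KO cells of some classes lay mostly in other clusters than WT cells, in cluster 12 (88.1%) for ExE endoderm-like, 22 (84.9%) for ExE mesenchyme-like and 29 (99.0%) for cardiomyocyte-like cells. Within cluster 29 the pooled Rhox5 level was 143 CPM in Dnmt1 KO and 12.3 in WT, and within cluster 12 it was 1067 and 1012 CPM. The summed ExE ectoderm markers were also higher in Dnmt1 KO in ExE mesenchyme-like cells, 147 to 177 CPM against 65.9 to 113, and their part in the result was not tested. In gut endoderm-like cells they were 110 to 140 against 93.0 to 229 CPM. The 8 primordial germ cell markers summed to 296 to 377 CPM in Dnmt1 KO against 131 to 189 in WT in gut endoderm-like cells, 64.8 to 79.4 against 11.9 to 20.4 in ExE mesenchyme-like, 75.0 to 91.0 against 9.67 to 15.2 in cardiomyocyte-like, 28.3 to 39.9 against 14.3 to 26.7 in ExE endoderm-like and 96.7 to 125 against 97.8 to 138 CPM in endothelium-like cells. In Dnmt3b KO the same sum was 227 to 536 CPM in gut endoderm-like, 23.6 to 39.6 in ExE mesenchyme-like, 28.4 to 44.5 in cardiomyocyte-like, 33.6 to 43.0 in ExE endoderm-like and 105 to 126 CPM in endothelium-like cells. The 8 epiblast markers summed to 29.4 to 48.3 CPM in Dnmt1 KO against 3.51 to 10.48 in WT in endothelium-like cells and 19.3 to 22.7 against 4.21 to 12.6 CPM in ExE mesenchyme-like cells, but to 46.1 to 63.7 against 58.0 to 171 in cardiomyocyte-like, 57.2 to 85.9 against 34.9 to 57.3 in gut endoderm-like and 107 to 131 against 76.7 to 115 CPM in ExE endoderm-like cells, where the groups overlapped. The part of these markers in the Rhox values was not tested.

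In Dnmt3b KO, 43 of 55 pairs in 13 classes were called higher, where 0.756% of all pairs were. Without embryo 12, 27 pairs were called, and the share of all pairs without it is not given here. Here too the count is a description, since some pairs passed the filter on low counts through KO embryos, and 5 of the 43 had at most 3 UMIs over all WT embryos, Rhox4d in 3 classes and Rhox4e and Rhox9 in 1 each. Rhox4e in gut endoderm-like cells had at most 0.769 CPM in WT and 34.4, 37.8 and 67.9 CPM in Dnmt3b KO 1 and 2, 11 and 12, against 9.75 to 20.03 CPM in Dnmt1 KO, a log2 fold change of 7.06 ± 0.42 (adjusted p 2.8e-09, edgeR). Rhox4d and Rhox4e were each called in 8 of 8 classes tested, and without Dnmt3b KO 12 in 7 and 8 of 8, counts that the filter fixed in part, as in neural tube-like cells, where WT held 0 UMIs of Rhox4d and 1 of Rhox4e. Rhox4e was called lower in Dnmt1 KO than in Dnmt3b KO in 2 of 4 classes tested. These were cardiomyocyte-like (log2 difference -1.66 ± 0.47, adjusted p 0.0070, edgeR) and ExE mesenchyme-like cells (-1.61 ± 0.32, adjusted p 0.0013). Both values include embryo 12, and neither a value without it nor the share of all genes is given here. Rhox6 was called in 12 of 13 classes, all but ExE endoderm-like, and in 8 of 13 without embryo 12. The calls that were lost kept log2 fold changes of 1.62 to 3.23 without that embryo (adjusted p 0.0108 to 0.149, edgeR). In surface ectoderm-like cells Rhox6 rose from at most 0.677 CPM in WT to 22.0, 41.2 and 180 CPM (7.70 ± 0.59). Rhox9 was called in 7 of 8 classes and in 4 of 8 without embryo 12. In surface ectoderm-like cells it had at most 0.366 CPM in WT and 8.08, 24.9 and 148 CPM in Dnmt3b KO. The primordial germ cell markers summed to 215 to 273 CPM in these cells of Dnmt3b KO against 159 to 196 in WT. They summed to 98.1 to 135 against 52.9 to 67.1 CPM in neural tube-like and 82.9 to 111 against 55.9 to 79.0 CPM in intermediate mesoderm-like cells. In allantois-like cells the groups overlapped (38.1 to 62.2 against 24.9 to 54.4 CPM). The part of these markers in the result was not tested.

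The Rhox5 calls in Dnmt3b KO rested on embryo 12. The gene was called in 8 of 13 classes with that embryo and in 0 of 13 without it. Without it the log2 fold change ranged from -0.47 in gut endoderm-like to 2.19 ± 0.44 in erythroid-like cells (adjusted p 0.0343, edgeR). It was below 0 only in gut endoderm-like and ExE endoderm-like cells. In erythroid-like cells Rhox5 was at 2.16 to 5.81 CPM in WT and at 7.51, 36.1 and 692 CPM in Dnmt3b KO 1 and 2, 11 and 12. In ExE mesenchyme-like cells it was at 29.4, 52.7 and 483 CPM against 10.1 to 36.9 in WT. All 3 embryos lay above WT in erythroid-like cells and embryo 12 stood far above the other 2 in both classes, while the embryo of 1 and 2 lay within the WT range in ExE mesenchyme-like cells. Rhox13 was tested in 5 classes and called in 0, with an unadjusted p under 0.05 in 4 and 0 calls by DESeq2. Its values in gut endoderm-like cells were 0, 0.185 and 7.81 CPM.

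**Figure D4:**
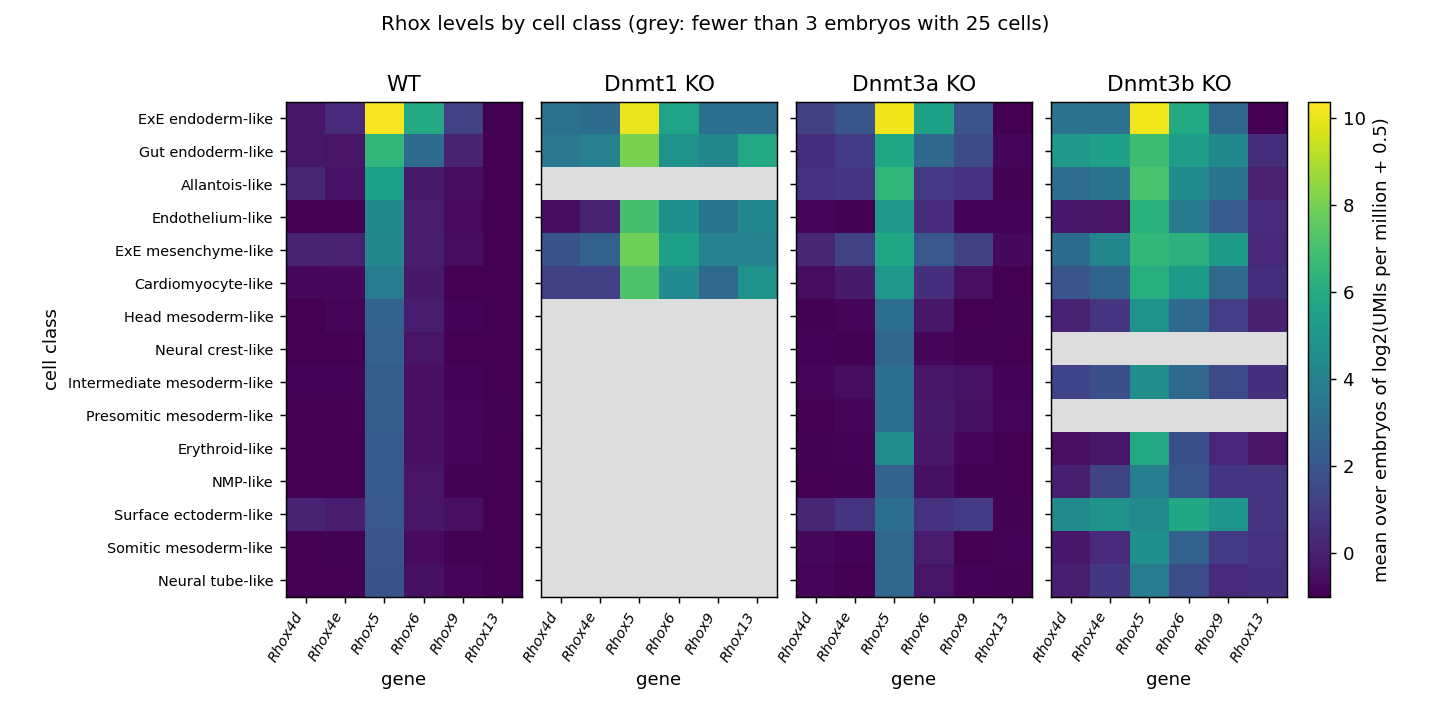
Mean over embryos of log2(CPM + 0.5) for the 6 genes (x axis) in each cell class (y axis), in 1 panel for each group, with grey where fewer than 3 embryos had 25 cells. ExE endoderm-like cells are the highest class for Rhox5 and Rhox6 in WT among the 15 classes drawn, which are those with 3 or more WT embryos, and Rhox13 is raised in the 5 classes of the Dnmt1 KO panel that are not grey.

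In Dnmt3a KO, 2 of 57 pairs in 15 classes were called higher, where 0.110% of all pairs were. Both were in ExE endoderm-like cells, Rhox4d as given above and Rhox4e (0 to 2.63 CPM in WT, 2.02 to 4.84 in Dnmt3a KO, log2 fold change 1.90 ± 0.39, adjusted p 0.0095, edgeR). Leaving out 1 embryo at a time left 0 to 4 called pairs, with 0 without any of Dnmt3a KO 13, Dnmt3a KO 14, Dnmt1 KO 3 and WT 3 to 7, 1 without any of Dnmt3a KO 2, Dnmt3b KO 11, Dnmt1 KO 1, Dnmt1 KO 2, WT 1 and WT 2, and 4 without Dnmt3b KO 12. Of the 57 pairs, 46 had a log2 fold change above 0. An edgeR unadjusted p below 0.05 was found for Rhox4d in 2 of 8 classes, Rhox4e in 6 of 8 and Rhox5 in 5 of 15. For Rhox6 it was 2 of 13, for Rhox9 4 of 8 and for Rhox13 0 of 5. DESeq2 called Rhox4d in 1 class, Rhox4e in 2 and the other genes in 0. The shares of all pairs on these measures are not given here. Rhox5 was not called in any class. In ExE mesenchyme-like cells it was at 43.2 to 88.0 CPM (1.40 ± 0.51, adjusted p 0.25), in erythroid-like cells at 13.2 to 38.2 CPM (2.51 ± 0.77, adjusted p 0.31) and in cardiomyocyte-like cells at 26.9 to 42.0 CPM, against at most 36.9, 5.81 and 19.3 CPM in WT.

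The share of cells with a UMI of a gene was counted after each cell was thinned to 3000 UMIs, which left out 4275 of 34066 WT, 883 of 6601 Dnmt1 KO, 6655 of 33517 Dnmt3a KO and 3146 of 25916 Dnmt3b KO cells. Rhox5 was seen in 15.4% ± 3.12 (SD, n = 7) of WT cells, 54.2% ± 15.4 (n = 3) of Dnmt1 KO, 21% ± 10.51 (n = 4) of Dnmt3a KO and 27.2% ± 17.7 (n = 3) of Dnmt3b KO cells. Without thinning these shares were 29.9%, 78.4%, 36.5% and 48.9%. In neural tube-like cells, taken to lack the gene in WT, the thinned share was 1.44% in WT, 3.45% (1.21% to 8.70% over embryos) in Dnmt3a KO and 5.26% (2.23% to 11.3%) in Dnmt3b KO, and in ExE endoderm-like cells it was 96.3% in WT and 95.3% to 95.6% in the KO groups. Rhox13 was seen in 6.08% ± 0.49 of Dnmt1 KO cells (35.8% without thinning), 0.521% ± 0.848 of Dnmt3b KO and 0.0017% of WT cells. Rhox6 was seen in 2.36% ± 0.61 of WT and 14.4% ± 8.40 of Dnmt1 KO cells. The shares were compared with WT by 18 exact two-sided permutation tests over embryos. The 6 tests of Dnmt1 KO gave the smallest p that 3 against 7 embryos allow, 0.00833 (0.0136 after Benjamini-Hochberg adjustment over the 18). In Dnmt3b KO the exact p was also 0.00833 (adjusted 0.0136) for Rhox4d, Rhox4e, Rhox6 and Rhox13, 0.0167 (adjusted 0.0231) for Rhox9 and 0.075 (adjusted 0.09) for Rhox5. In Dnmt3a KO, where no gene was called over the whole embryo, the mean share was higher for Rhox4d (0.174% against 0.0607% in WT, exact p 0.0061, adjusted 0.0136), Rhox4e (0.316% against 0.0884%, exact p 0.0152, adjusted 0.0227) and Rhox13 (0.0148%, exact p 0.0273, adjusted 0.0351). The embryos overlapped with WT for each of these. In the same group the exact p was 0.194 for Rhox5, 0.715 for Rhox6 and 0.621 for Rhox9. The tests of Rhox13 are a description in all KO groups, since WT held 3 UMIs of it in all. Of the thinned cells, 84.1% of WT, 36.2% of Dnmt1 KO, 77.8% of Dnmt3a KO and 68.9% of Dnmt3b KO had no UMI of any of the 6 genes. Exactly 2 of the genes were seen together in 14.3% of Dnmt1 KO cells against 2.19% of WT cells, and 3 in 5.54% against 0.101%. These shares pool the cells of all embryos of a group. ExE ectoderm-like cells, where several of the genes are high, made up 16.9% of Dnmt1 KO cells, 928 of them from embryo 2, and 0.358% of WT cells. Their part in these shares was not tested.

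**Figure D5:**
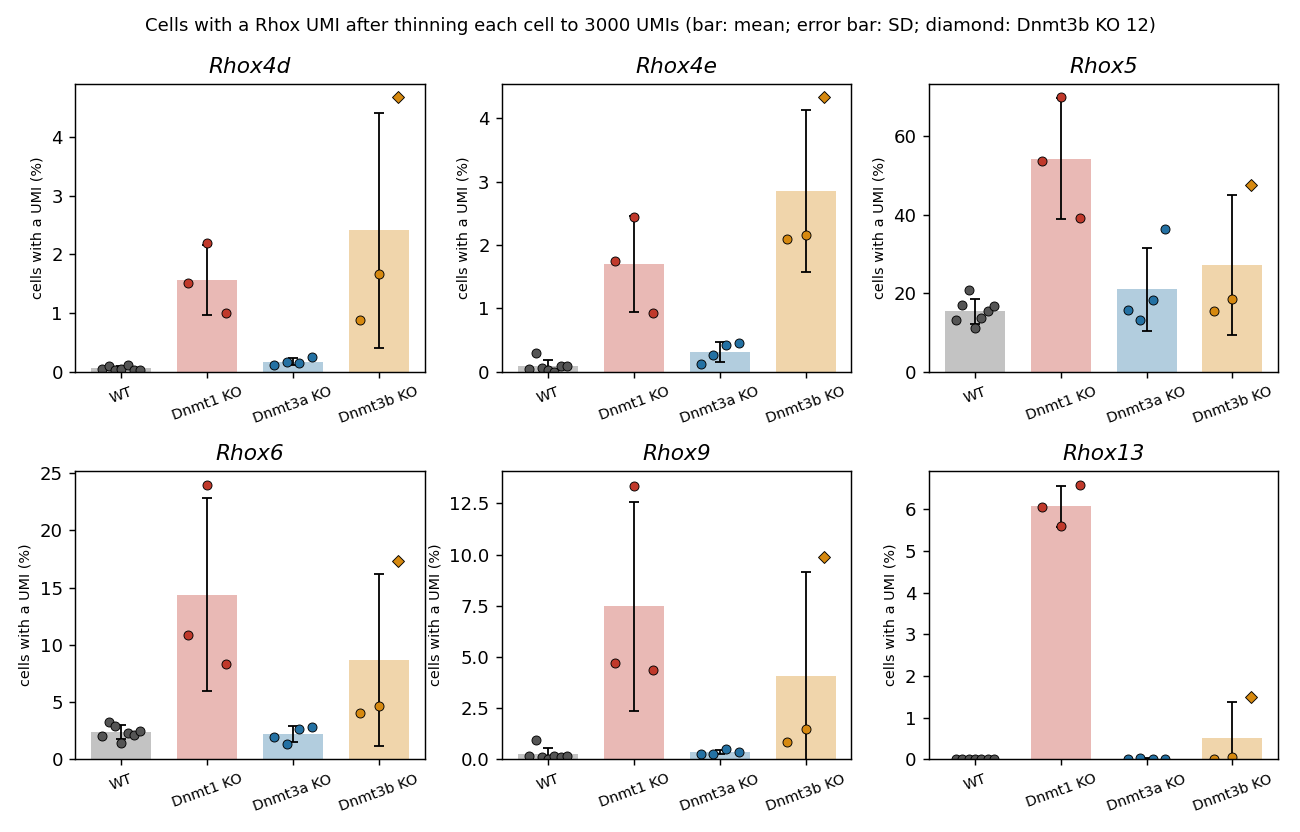
Share of cells with a UMI (%, y axis from 0) of each gene after thinning to 3000 UMIs, by group, with 1 point per embryo, bars at the mean, error bars of 1 SD cut at 0 and a diamond for Dnmt3b KO 12. The Dnmt1 KO points of Rhox13 lie between 5.597% and 6.58%, far above those of WT.

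The genes most like each member were found by Pearson's r of log2(CPM + 0.5) over the 17 embryos among 13178 genes other than Rhox genes, as a description, since the embryos share their genotype groups. Rhox4d was closest to Gpat2 (r = 0.973), which has a role in the piRNA pathway of germ cells, and Rhox4e to AU022751 (0.977), Gm4779 (0.976) and Syce1 (0.974), a protein of the meiotic synaptonemal complex. Gpat2 averaged 0.261 CPM in WT, 7.32 in Dnmt1 KO, 8.79 in Dnmt3b KO and 1.06 in Dnmt3a KO, and Syce1 averaged 0.166, 5.41, 5.47 and 1.12 CPM. Rhox5 was closest to Syne4 (0.975), Bst2 (0.971) and Mageb16 (0.965), of which Bst2, an interferon-inducible membrane protein, averaged 39.4, 125, 47.9 and 39.5 CPM. Rhox9 was closest to Gm9 (0.973), the neighbour of the cluster, which was also the second closest to Rhox6 (0.945) after Timm8a2 (0.948). Rhox13 was closest to 4933428M09Rik (0.995), Gm18336 (0.992) and Fthl17e (0.992), and Fthl17e averaged 0.0008 CPM in WT, 1.90 in Dnmt1 KO, 0.300 in Dnmt3b KO and 0.0124 in Dnmt3a KO. Between the members themselves r ranged from 0.584 (Rhox4e and Rhox5) to 0.972 (Rhox4d and Rhox4e).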

How the data were processed

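Single-cell RNA was measured in 18 libraries of whole E8.5 mouse embryos with a 3' kit. The deposited UMI count matrices hold whole, not normalized counts per gene and barcode, which the authors made with Cell Ranger, version 3.1.0 for 17 libraries and 5.0.0 for Dnmt3b KO 12 per the file headers, on mm10. A reference of human plus mouse genes was used for WT 1, for Dnmt3a KO 1 and 13 and for Dnmt3b KO 11, and only its mouse genes enter here. Reads that fit several genes are not counted, which lowers the Rhox4 copies.

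Barcodes with at least 1500 mouse UMIs, at most 30% mitochondrial and at most 35% ribosomal UMIs were kept, and doublets were removed at 0.8% per 1000 cells, which left 108028 of 162336 barcodes with 36369242 to 230259315 UMIs per library. Cells were clustered (2500 variable genes, 50 components, 30 neighbours, Leiden resolution 2) into 42 clusters, and 36 were named from markers into 20 classes.

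UMIs were summed per embryo, and per class where an embryo had at least 25 cells and each group 3 embryos, and fitted with edgeR 4.0.16 (filterByExpr, TMM, quasi-likelihood test, R 4.3.3) with the 4 groups in 1 fit. P-values were adjusted over all genes of each fit, and a call needed both an adjusted p below 0.01 and a change of 1 or more on the log2 scale. CPM values were computed from the sums over all mouse genes. The label numbers only name embryos, and nothing ties embryos to litters, so p-values measure the spread between these embryos. The intervals and upper limits cover counting error only, with 3 counts as the limit for a count of 0. In simulated counts of the 3 comparisons with WT (18453, 18476 and 18444 genes, 200 changed), the fit recovered 73.5%, 78.8% and 68.7% of genes changed by 1.5 on the log2 scale, with 0 false calls. The simulated counts follow the model of the fit, with independent embryos and none that stands apart. The 0 false calls therefore need not hold for these data. DESeq2 1.42.0, other filters and covariates, thinned counts and left-out embryos were tried as alternatives. Promoters came from a RefSeq table (GRCm38.p6) and gene positions from GENCODE on GRCm38.

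The members and lists were chosen with earlier results of these data known. The genes named are the 6 members, the other Rhox genes as a list, protein-coding genes within 1 Mb of the cluster, a silencing list, marker lists, and for each member the 3 genes with the highest r over embryos among genes other than Rhox genes with a mean of at least 1 CPM in some group. The test of the change between classes, the count of cells with several members and the fit without both ExE classes and Dnmt3b KO 12 were added after the data were seen.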

Additional observations from a re-analysis of the deposited data

Results flagged for a closer look

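In WT, Rhox4d (0.6648 CPM), Rhox4e (0.9199 CPM) and Rhox9 (7.682 CPM) stood apart in WT 2, whose gap to the next embryo exceeded Dixon's 95% critical value for 7 samples. Dixon's test was run only in WT and Dnmt3a KO (7 and 4 embryos), so no embryo of the groups of 3, Dnmt3b KO 12 included, could be flagged. Chance flags about 1 in 20 groups, and here 3 of 12 were flagged. The flagged genes are correlated over the same embryos (r = 0.972 for Rhox4d and Rhox4e), so these shares cannot be compared. All 3 flags were for WT 2, the only male of its group, which holds 120 of the 122 ExE ectoderm-like WT cells. The part of sex and of these cells in the values was not tested.

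The change against WT differed between 4 classes (cardiomyocyte-like, endothelium-like, ExE mesenchyme-like and gut endoderm-like) and ExE endoderm-like cells in 15 of 18 exact two-sided permutation tests, at an adjusted p below 0.05 over the 18. The values are differences of log2(CPM + 0.5), the 4 classes minus ExE endoderm-like cells, in KO minus WT. For Rhox5 they were 3.004 in Dnmt1 KO, 1.828 in Dnmt3b KO and 0.844 in Dnmt3a KO, and for Rhox6 4.502, 4.461 and 1.196. Rhox9 had 2.27 in Dnmt1 KO and 2.707 in Dnmt3b KO, and Rhox13 had 1.596, 1.411 and, in Dnmt3a KO, 0.1404. Rhox4d had the opposite sign, with -1.589, -0.7125 and -1.166, and so had Rhox4e in Dnmt3a KO, with -0.8463. Without Dnmt3b KO 12 the Dnmt3b KO values were 0.6441 for Rhox5, 3.706 for Rhox6, 1.97 for Rhox9, 0.2306 for Rhox13 and -0.5174 for Rhox4d. The test was added after the levels were seen in the same embryos, so it supports no direction by itself. The tests of Rhox13, counted among the 15, are a description for a further reason, since WT held 3 UMIs of it in all. The pseudocount holds back changes in classes where a gene is near 0, such as Rhox4d in endothelium-like cells. The fitted log2 fold change of Rhox4d in Dnmt3b KO was 6.75 in gut endoderm-like and 5.21 in ExE endoderm-like cells, with 3.98 as the lowest of its 8 classes. In Dnmt1 KO the fitted change was largest in ExE endoderm-like cells, at 4.85, and 2.67 in the lowest class, the same direction as the difference. The adjusted p of the exact test ranged from 0.0125 to 0.0436 over the 15 tests that passed. Rhox4e in Dnmt1 KO (-0.19) and Dnmt3b KO (0.65) and Rhox9 in Dnmt3a KO (0.14) did not pass, with adjusted p of the exact permutation test of 0.683, 0.188 and 0.683.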

How the results depend on the processing

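The limits are these. Dnmt3b KO rests on 3 embryos, of which 12 stood apart, and its genotype is in doubt. Embryo 11 also had less Dnmt3a RNA than any WT embryo. Dnmt1 KO could be tested in 5 classes, and in 3 further classes WT had too few cells. Sex and genotype are nearly confounded, and methylation was not measured. The Rhox4 copies cannot be separated with certainty. The causes of the changes below were not tested.

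The 6 calls over the whole embryo in Dnmt1 KO against WT stood when any embryo was left out, and 5 stood with DESeq2 or with the Y-linked share as a covariate. Rhox13 was among the 6 calls in Dnmt1 KO and the 3 in Dnmt3b KO, and was the 1 call between these groups. Its calls are a description only here too, since it had to differ to pass the filter. In Dnmt3a KO against WT (0 members called), 1 was called with the Y-linked share, which was Rhox13, and 0 to 1 without 1 embryo. In Dnmt3b KO (3 called), 6 were called without ExE ectoderm and ExE endoderm cells, and 5 with embryo 12 left out as well, a combination added after the data were seen. Between Dnmt1 KO and Dnmt3b KO (1 called), 2 were called with the Y-linked share, with Dnmt3b KO 1 and 2 as separate embryos, and without ExE cells, with or without embryo 12, 0 with the combined reference as a covariate, and 0 to 3 without 1 embryo. Between Dnmt3b KO and Dnmt3a KO (2 called), 1 was called with the combined reference and 1 in thinned counts, and 0 to 4 without 1 embryo. Of pairs of a gene and a class, thinning left 13 in Dnmt1 KO (from 26), 0 in Dnmt3a KO (from 2) and 13 in Dnmt3b KO (from 43). With at least 50 cells, 16 pairs were called in Dnmt1 KO, and with classes from WT cells alone 49 in Dnmt1 KO and 0 in Dnmt3a KO. The pairs tested changed too, so these counts are not weaker or stronger results by themselves. Dnmt1 KO embryos had at most 45 gut endoderm-like and as few as 29 endothelium-like cells. With classes from WT cells, Rhox5, Rhox6, Rhox9 and Rhox13 were tested in 10 classes of Dnmt1 KO, against 5. For Dnmt3a KO it was 8 with the Y-linked share, 1 with the combined reference, 0 with Dnmt3b KO 1 and 2 separate, and 0 to 4 without 1 embryo. For Dnmt3b KO, leaving out 1 embryo gave 27 to 50 pairs, the lowest without embryo 12.

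Some log2 fold changes that were not called changed sign. In Dnmt3a KO, Rhox4d fell to -0.48 in thinned counts. Rhox5 became 0.88 with the Y-linked share and 1.09 without ExE cells, and ranged from -0.15 to 0.0378 without 1 embryo. Without ExE cells Rhox6 became 0.65 and Rhox9 1.58 (0.6295 and 1.554, with Rhox5 at 1.087, when embryo 12 was left out as well), and Rhox9 ranged from -0.77 to 0.93 without 1 embryo. In Dnmt3b KO, Rhox5 ranged from -0.0373 to 0.64 without 1 embryo. Rhox6 in ExE endoderm-like cells of Dnmt3b KO became 0.0400 with the Y-linked share, 0.22 in thinned counts and 0.0293 with every barcode of 1500 UMIs, and ranged from -0.24 to 0.0781 without 1 embryo.

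Label numbers are shared by the groups, but they do not pair embryos. Over 13 pairs of libraries with the same number, the correlation of deviations ranged from -0.23 to 0.17, 3 exceeded 0.1, and 0 of 10 libraries correlated best with its own number. With the replicate number as a block, 5 members were called in Dnmt1 KO against WT, 0 in Dnmt3b KO against WT and 0 between Dnmt3b KO and Dnmt3a KO, and Rhox5 (-0.42) and Rhox6 (-0.0306) turned sign in Dnmt3b KO. Numbers 11, 12, 13 and 14 each occur in 1 library, which then has a block to itself and does not inform the group differences. Dnmt3b KO is then left with numbers 1 and 2, the pair counted as 1 embryo, so this fit cannot test its calls.

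Over all alternatives, the counts of calls stayed within 1.5 times the reported count in 186 values, were higher in 14 and lower in 40. These counts are not set against the number of genes or pairs tested, which differs between alternatives.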

Other observations

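In 3 classes with 25 cells or more in each Dnmt1 KO embryo, WT had too few cells for a test. The ExE ectoderm-like values are given above. Epiblast-like cells, 12.04% of Dnmt1 KO cells, held Rhox13 at 25.8 to 28.3 CPM and Rhox5 at 19.1 to 29.9 CPM in the 3 embryos. In megakaryocyte-like cells the pooled level of Rhox5 was 25.6 CPM in WT, 426 in Dnmt1 KO, 464 in Dnmt3b KO and 59.8 in Dnmt3a KO, and in Dnmt3b KO it was 5.54, 46.4 and 809 CPM in the embryos of 1 and 2, 11 and 12. Rhox13 stood at 15.2 to 21.8 CPM in the same cells of Dnmt1 KO.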
